A study of Mus musculus with 39 samples.

Results

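The genes described here are 6 regulators of methylation on lysine 9 of histone H3 (H3K9): Ehmt1, Ehmt2, Setdb1, Suv39h1, Suv39h2 and Trim28. They were chosen by symbol from the 32285 genes of 2 droplet single-cell RNA libraries of whole mouse testis, and each symbol matched 1 gene. The control library came from testis labelled Kdm6a fl/y; Cre-. The conditional knockout (cKO) library came from testis labelled Kdm6a fl/y; Ddx4-Cre+, so both carry the floxed allele and only the cKO carries Cre. Ddx4 is a germ-cell gene, so the recombinase acts in germ cells and not in the somatic cells of the testis. The labels give no age, and do not say how many animals went into a library. ATAC-seq and H3K27me3 CUT&Tag peak lists of sorted cKIT+ spermatogonia, from 2 control and 3 cKO libraries each, were read at the start sites of the same genes. Kdm6a encodes a demethylase of lysine 27 of histone H3.

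H3K9 methylation marks silent chromatin. EHMT2 (G9a) and EHMT1 (GLP) form a heterodimer that places mono- and dimethylation mainly in euchromatin, and germ cells that lack G9a arrest in meiosis. SETDB1 trimethylates H3K9 at transposons and repressed genes, to which KRAB zinc-finger proteins bring it through the scaffold TRIM28 (KAP1), which is itself no methyltransferase. In meiosis SETDB1 also acts on the silenced sex chromosomes. SUV39H1 and SUV39H2 are paralogs that trimethylate H3K9 at pericentromeric repeats, and SUV39H2 was first described as the testis form.

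The control library held 229882646 UMIs (unique molecular identifiers, each 1 counted RNA molecule) and the cKO library 172368722. Barcodes with at least 3000 UMIs were taken as cells, 11252 in control and 8520 in cKO, of which 30 barcode sequences occurred in both. Marker gates gave 7 classes that held 79.2% and 81.6% of these cells. They are 243 control and 203 cKO spermatogonia, 553 and 170 early spermatocytes, 2130 and 1672 late spermatocytes, 1639 and 1624 round spermatids, 4053 and 3003 elongating spermatids, 101 and 100 Leydig cells, and 196 and 181 Sertoli cells. The names mean only that a cell is like that type by its markers. No marker of another class was among the 10 leading genes of any class, but the gates used these same markers, so this is no independent check. Levels are CPM, the UMIs of a gene in every 1000000 UMIs of the class, with an exact 95% Poisson interval in brackets. Stra8, a marker of the early gate, stood at 212 and 197 CPM in control and cKO spermatogonia and at 237 and 174 CPM in early spermatocytes. Spermatogonia held Kit at 150 and 127 CPM and Gfra1 at 9.25 and 8.32 CPM. With 1 library per genotype there is no test, intervals cover counting error only, and genotype and library cannot be told apart.

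Kdm6a itself was counted at 20.5 CPM in control and 6.94 CPM in cKO spermatogonia (40 and 10 UMIs). In early spermatocytes it was counted at 36.9 and 7.55 CPM (119 and 8 UMIs). In Sertoli cells it was counted at 10.6 and 16.3 CPM (16 and 23 UMIs), and in Leydig cells at 12.9 and 8.77 CPM (12 and 7 UMIs). The sources used here do not say whether the counted end of the transcript lies in the deleted part. Free RNA was read from barcodes with 10 to 100 UMIs, where Kdm6a stood at 10.8 and 14.4 CPM. All 5 germ-cell classes of the cKO library were below that level, as were late spermatocytes and both spermatid classes of the control library (0.281 to 0.988 CPM).

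On GRCm38, Setdb1 (ENSMUSG00000015697) lies at chr3:95323525-95357202, Suv39h1 (ENSMUSG00000039231) at chrX:8061171-8074760 and Suv39h2 (ENSMUSG00000026646) at chr2:3455815-3474986. Ehmt1 (ENSMUSG00000036893) lies at chr2:24790769-24919643, Ehmt2 (ENSMUSG00000013787) at chr17:34898463-34914073 and Trim28 (ENSMUSG00000005566) at chr7:13024152-13031032. Promoters were read because ATAC-seq marks open chromatin there in cKIT+ spermatogonia. RefSeq lists 8 start sites for the 6 genes on GRCm38, the build of the peak lists, and the 250 bases before 3 of them are shown. These 3 were chosen because, among the 6 genes, Setdb1 differs most regularly between the libraries, and because the Suv39 paralogs differ in their peaks. Capitals mark matches, on either strand, to 5 short motifs, and no matches overlapped. The GC box was searched as GGGCGG, which 32.7% of the 32851 promoters of this length hold. The CCAAT box was searched by those 5 letters, which 33.8% hold. The TATA box was searched as TATAAA, which 12.4% hold. The E box was searched as CACGTG, which 6.02% hold. The core of ETS-family sites was searched as CCGGAAG, which 6.91% hold. A match is a run of letters and not a shown binding site. The sequences run 5′ to 3′ toward the start, all on the minus strand, from chr3:95357203-95357452, chrX:8074761-8075010 and chr2:3474987-3475236.
Setdb1: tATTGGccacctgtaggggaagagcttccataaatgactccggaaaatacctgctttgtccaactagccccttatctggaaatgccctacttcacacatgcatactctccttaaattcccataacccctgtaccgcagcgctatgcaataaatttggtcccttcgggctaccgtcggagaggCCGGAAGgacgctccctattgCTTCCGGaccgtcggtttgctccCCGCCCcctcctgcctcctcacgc
Suv39h1: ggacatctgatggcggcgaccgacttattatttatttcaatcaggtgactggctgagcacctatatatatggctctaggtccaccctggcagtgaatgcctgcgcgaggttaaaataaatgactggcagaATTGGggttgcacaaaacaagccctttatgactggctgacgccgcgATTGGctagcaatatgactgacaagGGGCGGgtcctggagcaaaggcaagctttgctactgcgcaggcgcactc
Suv39h2: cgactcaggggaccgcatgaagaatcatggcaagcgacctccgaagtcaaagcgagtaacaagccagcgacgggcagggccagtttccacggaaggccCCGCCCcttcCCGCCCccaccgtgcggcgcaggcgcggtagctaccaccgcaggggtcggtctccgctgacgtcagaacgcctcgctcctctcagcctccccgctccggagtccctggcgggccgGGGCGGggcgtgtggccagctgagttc

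The Setdb1 promoter holds the ETS core at 2 places, 68 and 47 bases before the start, with 13 CpG and 54.4% GC. An ATAC peak lay over its start in 5 of 5 libraries, with an authors' fold enrichment of 5.31 and 7.55 in control and 3.86, 4.80 and 4.54 in cKO. In control 1 this peak ran from -121 to 181 bases around the start, and both matches lay within it. In cKO 3, which had the longest list of 40497 peaks, it ran from -746 to 1018 bases. The lists were called separately, and their values cannot be compared between libraries.

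The paralogs differed in their peaks. The first start of Suv39h1, with 11 CpG and 51.6% GC, has 2 matches to the CCAAT box and 1 to the GC box, and was covered by a peak in 5 of 5 libraries, with fold enrichments of 5.84 to 8.05. Its second start, with 25 CpG, 67.2% GC and 1 match to the GC box, was covered in 1 of 2 control and 1 of 3 cKO libraries, and all 5 had a peak within 1000 bases. Suv39h2, with 27 CpG, more than 91.4% of promoters, and 69.6% GC, has 3 matches to the GC box. No library had a peak within 1000 bases of its start, and the nearest lay 37222 to 37650 bases away. Its RNA was counted at 101 and 103 CPM in the spermatogonia of the single-cell libraries. Peaks covered the starts of 21.8% to 39.4% of 27025 genes, depending on the library, and lay within 1000 bases of 27.8% to 48.1%. These shares take 1 start per gene and 1 library at a time. The share of genes with a peak in every library, or in none, was not counted.

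**Figure D1:**
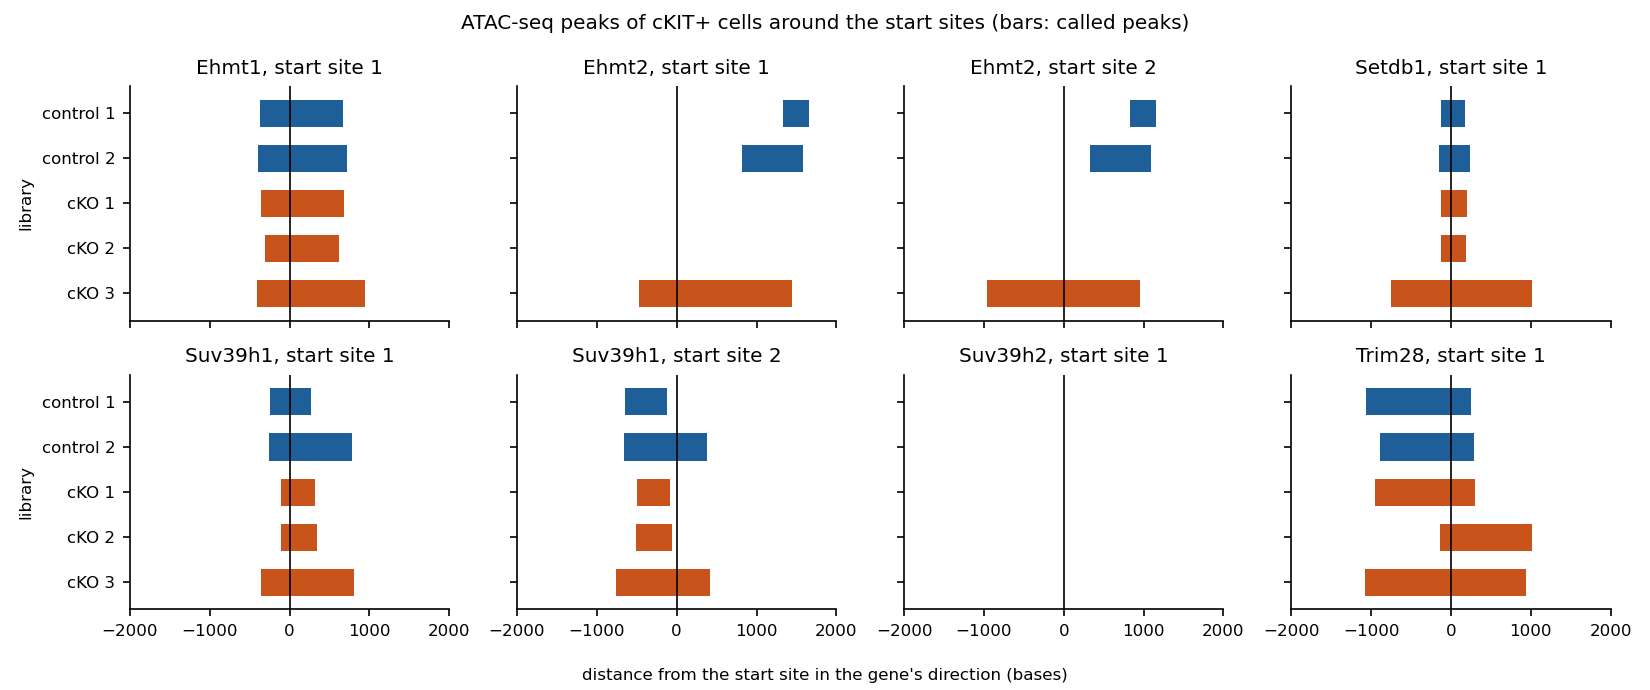
ATAC-seq peaks within 2000 bases of the 8 start sites, by library, control in blue and cKO in orange; the x axis is the distance from the start in the direction of the gene and each bar is 1 called peak. Ehmt1, Setdb1, the first start of Suv39h1 and Trim28 are covered in 5 of 5 libraries and Suv39h2 in none.

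Ehmt1 and Trim28 were also covered in 5 of 5 libraries, with fold enrichments of 3.40 to 4.79 and 4.24 to 6.57. The starts of Ehmt2, on chromosome 17, were covered only in cKO 3, and in both controls the nearest peak began 328 to 1329 bases downstream of them. The H3K27me3 lists, which show the mark that KDM6A removes, covered 4.11% to 11.0% of gene starts per library and had a region within 1000 bases of 7.55% to 14.5% of them. None of them had a region within 1000 bases of any of the 8 starts in any of the 5 libraries, and neither had the IgG list. ATAC-seq and CUT&Tag were made from sorted spermatogonia, and later stages were not measured by them.

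Between germ-cell stages the 6 genes followed different courses. In CPM, Ehmt1 and Suv39h1 were highest in spermatogonia and early spermatocytes among germ cells, Setdb1 was high up to late spermatocytes, and Trim28 was highest in late spermatocytes, in cKO with an interval that overlapped the one of early spermatocytes. Suv39h2 was low in late spermatocytes and high again in round spermatids, and Ehmt2 varied least of the 6 genes between germ-cell classes. A stage step was called when the CPM differed at least 2-fold in the same direction in both libraries, among genes with at least 20 UMIs over both stages in each library.

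**Figure D2:**
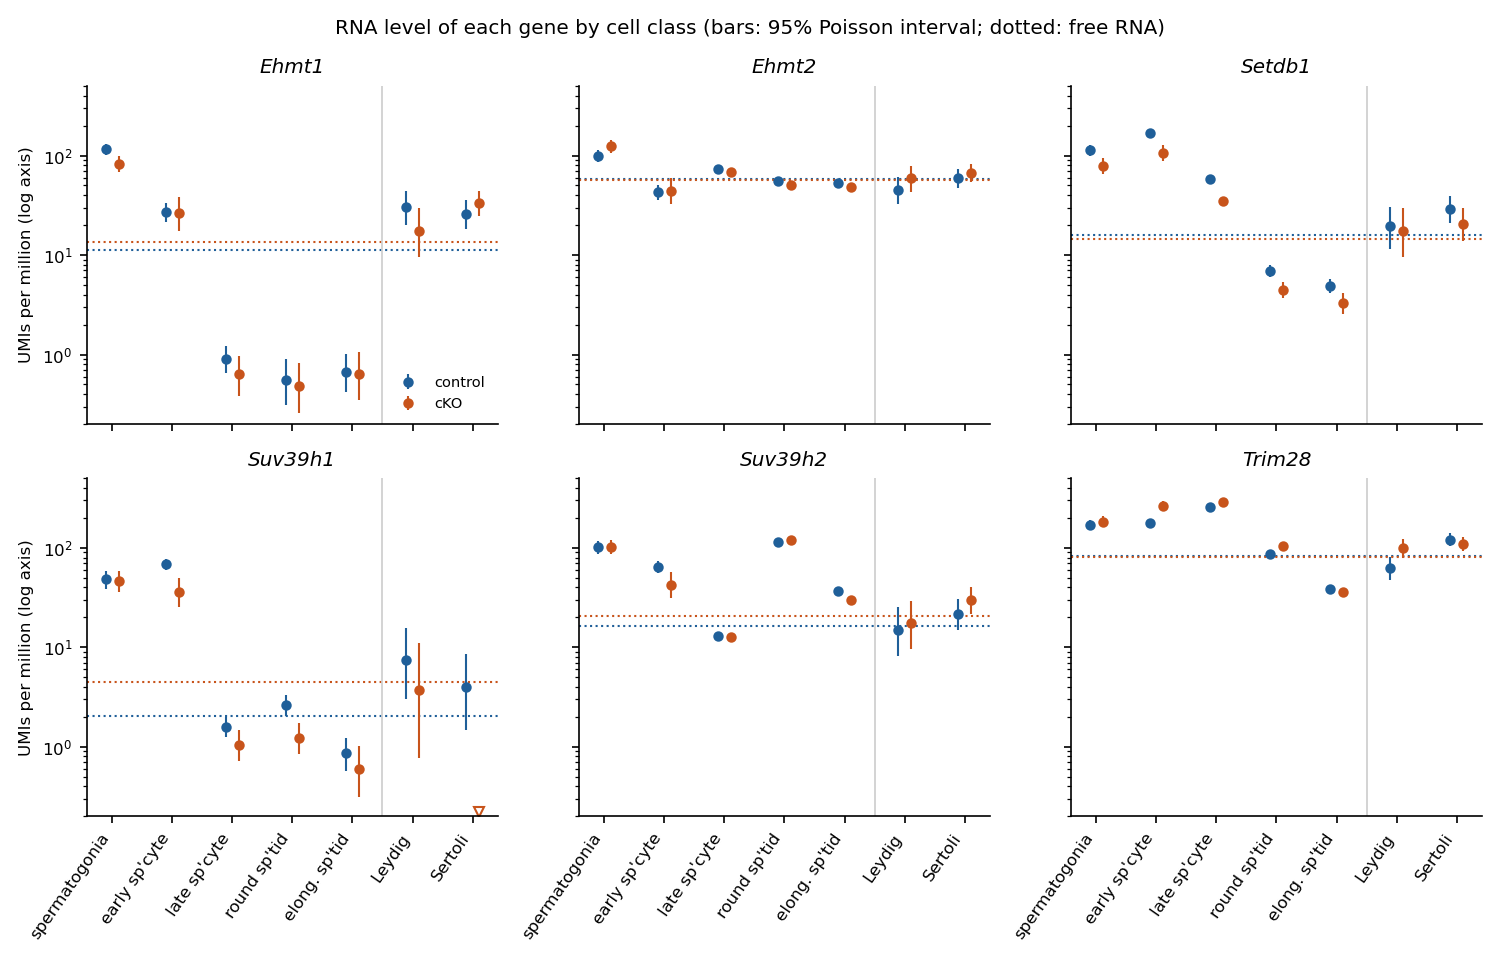
Level of each of the 6 genes by cell class, in CPM on a log axis, control in blue and cKO in orange, with 95% Poisson intervals; dotted lines give the level in free RNA and an open triangle a count of 0. Ehmt1 stands near 1 CPM from late spermatocytes on, whereas Suv39h2 returns to 116 and 121 CPM in round spermatids.

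From spermatogonia to early spermatocytes, 0 of the 6 genes were called higher, where 5.97% of all 10069 tested genes were, and 2 were called lower, Ehmt1 and Ehmt2, against 12.7%. Ehmt1 went from 115 CPM (100.5 to 131) to 27 CPM (21.6 to 33.3) in control, a 4.26-fold difference, and from 81.8 CPM to 26.4 CPM in cKO. Spermatogonia, 243 of the 8915 gated control cells, held 49.0% of the Ehmt1 UMIs of those cells. Ehmt2 went from 99.1 to 42.8 CPM in control and from 125 to 44.4 CPM in cKO. Suv39h2 was lower in both libraries, past 2-fold only in cKO, at 101 and 64.5 CPM in control and 103 and 42.5 CPM in cKO. Per cell it was past 2-fold in both, by -1.11 and -1.46 on the log2 scale. Setdb1 was higher in early spermatocytes in both libraries, by 1.48-fold in control and 1.36-fold in cKO.

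From early to late spermatocytes, 0 genes were called higher (background 17.5% of 14528) and 4 lower (background 28.8%): Ehmt1, Setdb1, Suv39h1 and Suv39h2. Ehmt1 was at 0.907 CPM (42 UMIs in 2130 cells) in control and 0.631 CPM (20 UMIs in 1672 cells) in cKO late spermatocytes. These levels were 29.7-fold and 41.9-fold below those in early spermatocytes. Both were also below the free-RNA level of Ehmt1, which was 11.3 CPM in control and 13.4 CPM in cKO. In the same cells Ehmt2, which encodes the other subunit of the dimer, was counted at 73.2 CPM (70.8 to 75.7) and 68.7 CPM (65.8 to 71.6). Free RNA held Ehmt2 at 58.3 and 57.1 CPM.

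Suv39h1 lies on the X chromosome, which is silenced in late spermatocytes, and it showed the widest step of the 6 genes in the control library. It went from 68.2 CPM (59.5 to 77.9) to 1.60 CPM (1.25 to 2.01), a 42.7-fold difference, and from 35.9 to 1.04 CPM in cKO, a 34.4-fold difference. Of 344 tested X-linked genes, 74.4% were called lower at this step, against 28.4% of 13114 other genes. The cause of the Suv39h1 step was not tested. Within the early gate Suv39h1 differed between Leiden clusters, which were made without the 6 genes. In cluster 13, which held Stra8 at 426 CPM and Dmc1 at 235 CPM in control, Suv39h1 stood at 118 CPM. In cluster 15, with Stra8 at 5.65 CPM and Dmc1 at 111 CPM, Suv39h1 stood at 5.65 CPM. Both markers were thus lower in cluster 15, and the order of these clusters in time was not tested. In the cKO library Suv39h1 stood at 102 CPM in cluster 13 and 3.48 CPM in cluster 15. Round spermatids held Suv39h1 at 2.64 CPM in control and 1.22 CPM in cKO, against 78.7% of 431 X-linked genes that were called higher at this later step.

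Setdb1 went from 167 CPM (154 to 182) to 58.8 CPM (56.6 to 61.0) in control and from 107 to 34.8 CPM in cKO. This step depended on the scale, because a late spermatocyte held a median of 20338.5 UMIs in control and an early one 4386. Per 1000 control cells there were 976 Setdb1 UMIs in early and 1277 in late spermatocytes, and in cKO 665 and 660. On that scale, chosen after the values were seen, the control difference changed sign, to 0.39 on the log2 scale, and in cKO it was -0.01. Per cell, Ehmt2 was higher in late than in early spermatocytes by 2.67 and 2.23 on the log2 scale and Trim28 by 2.44 and 1.74, both past 2-fold, where 52.0% of all genes were called higher. The per-cell difference of Suv39h2 was -0.43 and -0.14, short of 2-fold, and Ehmt1 and Suv39h1 were called lower on both scales. Late spermatocytes held 69.9% of all gated Setdb1 UMIs in control. Trim28, the partner of SETDB1, was at 258 CPM (254 to 263) in control and 289 CPM (283 to 294) in cKO late spermatocytes. In cKO that interval overlapped the one of early spermatocytes, at 263 CPM (233 to 296).

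From late spermatocytes to round spermatids, 1 gene was called higher, Suv39h2 (background 29.4% of 16718), and 2 lower, Setdb1 and Trim28 (background 33.4%). Suv39h2 went from 12.9 CPM (11.9 to 14) to 116 CPM (112 to 120) in control, a 9.0-fold difference, and from 12.7 to 121 CPM in cKO, a 9.53-fold difference. Free RNA held it at 16.5 and 20.9 CPM, so late spermatocytes lay below that level and round spermatids above it. With each cell thinned to 3000 UMIs, 4.51% of control late spermatocytes (exact binomial interval 3.67% to 5.48%) and 29.2% of round spermatids (27% to 31.5%) had a UMI of Suv39h2. Without thinning these shares were 21.4% and 73.5%. In the cKO library the thinned shares were 4.13% and 29.8%. Its paralog Suv39h1 had a UMI in 0.798% of thinned late spermatocytes and 1.10% of thinned round spermatids in control. Setdb1 was lower in round spermatids by 8.49-fold in control and 7.82-fold in cKO, and Trim28 by 2.99-fold and 2.79-fold.

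From round to elongating spermatids, 0 genes were called higher (background 7.75% of 15774) and 3 lower, Suv39h1, Suv39h2 and Trim28 (background 43.0%). Suv39h2 was at 36.6 CPM (34.6 to 38.8) in control and 30.3 CPM in cKO elongating spermatids. Trim28 was at 39.0 CPM and 36.3 CPM. Ehmt2 had nearly the same CPM in both spermatid classes, 55.8 and 53.2 in control and 50.8 and 48.0 in cKO, near those of free RNA. Per 1000 cells it went from 930 to 428 UMIs in control and from 842 to 351 in cKO, past 2-fold lower in both. Across the germ-cell classes Ehmt2 spanned 2.32-fold in control and 2.81-fold in cKO in CPM, and Ehmt1 spanned 210-fold and 170-fold. Per 1000 control cells Ehmt2 ran from 250 UMIs in early to 1592 in late spermatocytes.

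The order of the classes was alike in both libraries for Setdb1, Suv39h2 and Trim28. For Setdb1 it ran from early spermatocytes over spermatogonia, late spermatocytes, Sertoli and Leydig cells to round and elongating spermatids. Of these neighbours, Sertoli and Leydig cells had overlapping intervals in both libraries. In cKO, early spermatocytes and spermatogonia, and the 2 spermatid classes, overlapped too. For Suv39h2 round spermatids and spermatogonia led and could not be told apart by their intervals in either library. For Suv39h1 the leading class was early spermatocytes in control and spermatogonia in cKO, and the intervals of these classes overlapped in cKO. The cKO order depended on the setting. At 2000 UMIs per barcode early spermatocytes led, with 52.6 against 46.1 CPM, and at 5000 UMIs spermatogonia led, with 44.5 against 15.9 CPM. Early spermatocytes of cluster 13 held 118 and 102 CPM and those of cluster 15 held 5.65 and 3.48 CPM, against 48.3 and 46.5 CPM in spermatogonia.

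In somatic cells, which Ddx4-Cre spares, all 6 genes were read at low depth, with 798621 to 1507701 UMIs per class and library. Sertoli cells held Trim28 at 121 CPM (182 UMIs) in control and 110 CPM (155 UMIs) in cKO, where free RNA held 82.0 and 81.5 CPM. With Sertoli cells taken from Leiden clusters, Trim28 was at 79.4 and 71.9 CPM, below free RNA. Ehmt1 was at 25.9 and 33.4 CPM in Sertoli cells and at 30.1 CPM in control and 17.5 CPM in cKO Leydig cells. Among Sertoli cells with at most 10% mitochondrial UMIs it was at 7.59 and 6.32 CPM, below free RNA, so whether Sertoli cells exceed free RNA depended on the setting for both genes. Suv39h1 had 6 UMIs in control and 0 in 181 cKO Sertoli cells, where a count of 0 allows up to 2.13 CPM, the level of 3 counts. The markers of elongating spermatids summed to 56353 CPM in control and 54086 CPM in cKO Sertoli cells. Leydig cells held 23581 and 19211 CPM of them, and 9 of the 9 markers were counted in each somatic class. The part of germ-cell RNA in the somatic levels was not tested.

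Between the genotypes, the most regular difference among the 6 genes was in Setdb1, which was lower in the cKO library in all 7 classes. In late spermatocytes 2720 UMIs in control and 1103 in cKO gave 58.8 and 34.8 CPM, which is a cKO-to-control log2 ratio of -0.75 (-0.86 to -0.65). The ratio was -0.53 (-0.87 to -0.19) in spermatogonia, -0.65 (-0.96 to -0.36) in early spermatocytes, -0.64 (-0.98 to -0.30) in round and -0.59 (-1.01 to -0.18) in elongating spermatids. The intervals of all 5 germ-cell classes lay below 0. Free RNA held Setdb1 at 16.0 and 14.4 CPM, and its levels in round spermatids (6.92 and 4.45 CPM) and elongating spermatids (4.93 and 3.29 CPM) were below that, while those in Leydig cells (19.4 and 17.5 CPM) were near it. In Sertoli cells the ratio was -0.50 (-1.23 to 0.21) and in Leydig cells -0.14 (-1.26 to 0.95), and both intervals held 0. Without barcodes called doublets the Leydig ratio was 0.30. Of 7256 genes tested in every class, 12.9% were lower and 5.42% higher in cKO in all 7 classes, as against 1 and 0 of the 5 members tested. In all 5 germ-cell classes 3 of 6 genes were lower, Ehmt1, Setdb1 and Suv39h1, and 0 higher, against 19.9% and 7.37% of 9790 genes. Of the 3, only Setdb1 stayed below 0 in each germ-cell class under every setting tried. Ehmt1 was at 1.32 (0.15 to 2.51) in early spermatocytes of cluster 15, with 13 UMIs in control and 15 in cKO. It was at 0.34 in round spermatids with a double margin and at 0.03 in elongating spermatids with TMM factors. Suv39h1 was at 0.04 in spermatogonia without doublets.

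**Figure D3:**
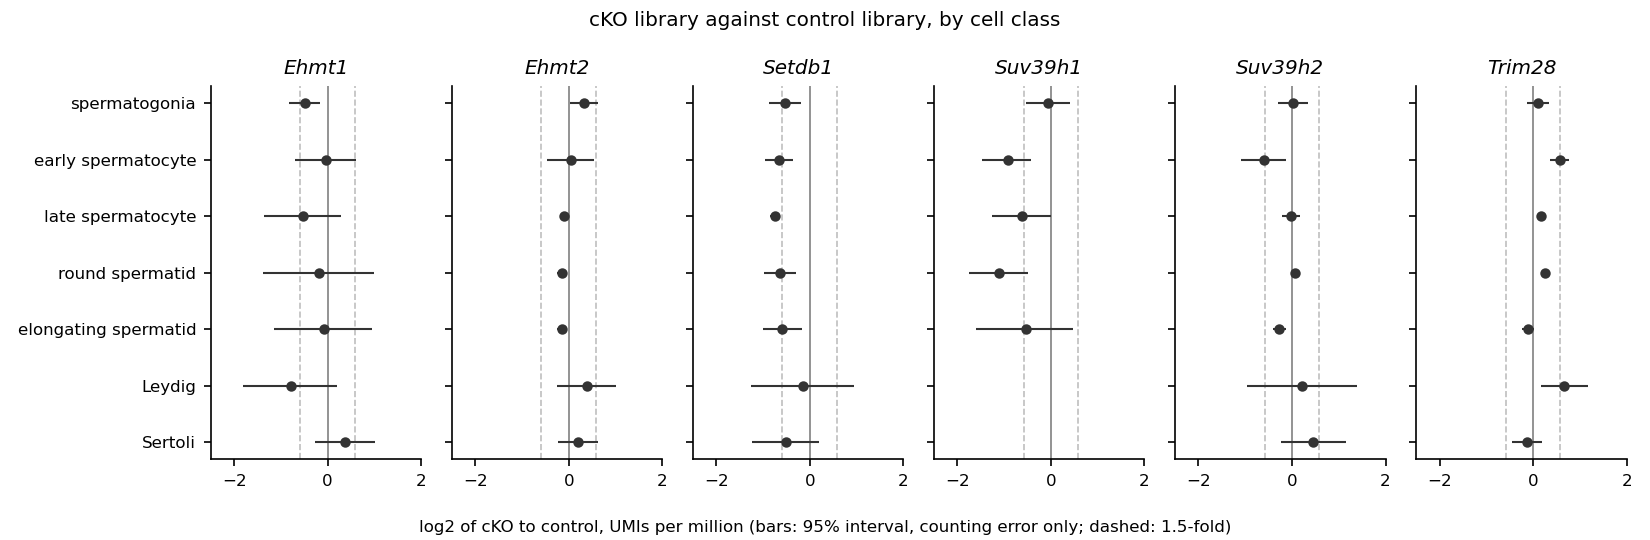
log2 ratio of cKO to control by class for the 6 genes, with 95% intervals for counting error and dashed lines at 1.5-fold; classes with under 20 UMIs over both libraries are left out, and bars end at the axis limits. Setdb1 lies left of 0 in every class, from -0.14 in Leydig cells to -0.75 in late spermatocytes, and Trim28 lies right of 0 in spermatocytes and round spermatids.

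The same holds at finer grain. All 21 Leiden clusters had a Setdb1 ratio below 0, from -1.14 in cluster 5 of round spermatids to -0.09 in cluster 18 of Leydig cells. In 19 clusters Setdb1 had at least 20 UMIs, and in 12 of these the interval lay below 0. Of 6986 genes tested in each of the 17 germ-cell clusters, 10.1% were lower in cKO in all of them and 1.60% higher. Of the 4 members tested there, 1 was lower throughout, Setdb1, and 0 were higher. In late-spermatocyte cluster 7 the levels were 87.5 and 57.5 CPM, in cluster 12 they were 67.8 and 41.0 CPM, and in cluster 10 they were 51.8 and 30.0 CPM. With each cell thinned to 3000 UMIs, 16.8% of control (15.2% to 18.5%) and 10.5% of cKO (9.10% to 12.1%) late spermatocytes had a Setdb1 UMI. Without thinning the shares were 63.8% and 44.6%.

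**Figure D4:**
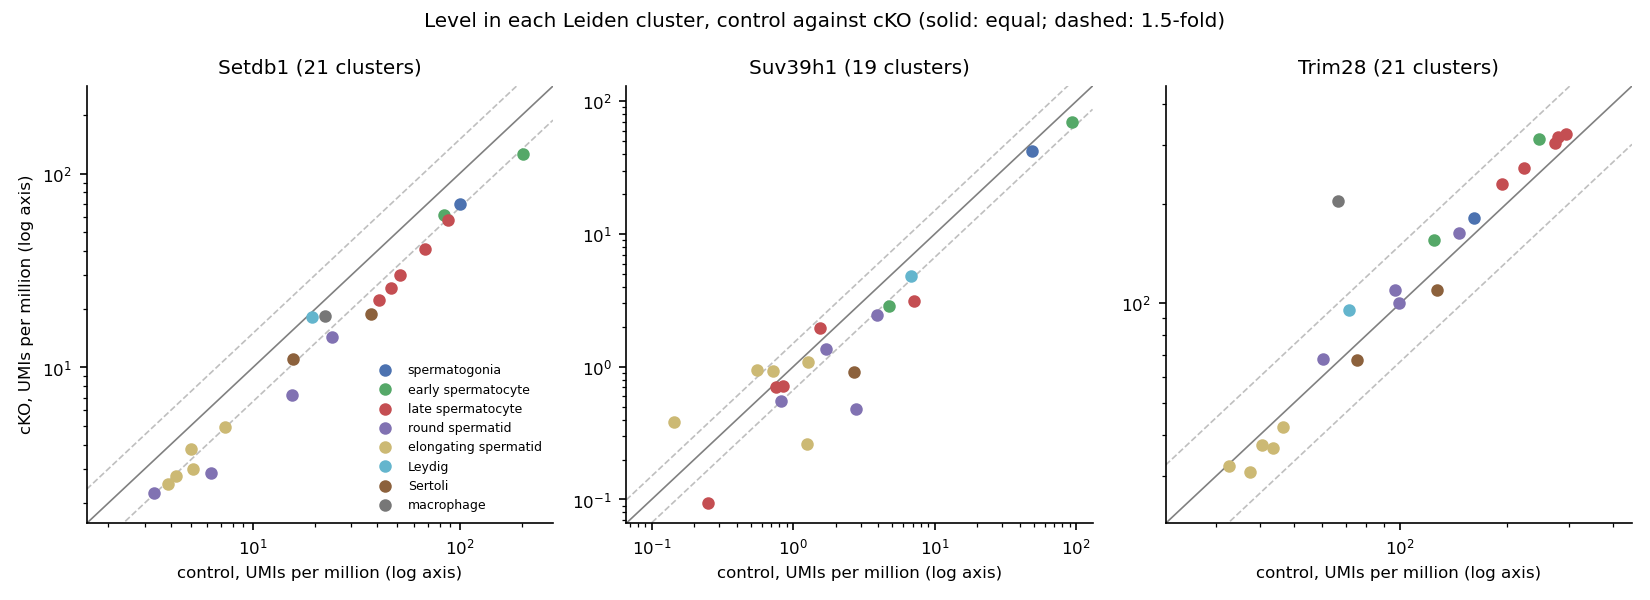
Level in each Leiden cluster in control against cKO, in CPM on log axes, for Setdb1, Suv39h1 and Trim28; the solid line marks equal levels and dashed lines 1.5-fold, and colours give the class whose markers score highest. Every Setdb1 point lies below the line of equal levels, whereas the 5 late-spermatocyte points of Trim28 lie slightly above it.

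Members past 1.5-fold between the libraries were counted among genes with at least 20 UMIs over both. In spermatogonia 0 of 6 genes were higher (background 4.39%) and 0 lower (background 11.8%). In early spermatocytes 0 were higher (background 6.32%) and 3 lower, Setdb1, Suv39h1 and Suv39h2 (background 18.2%). There Suv39h2 missed the limit under most other settings, and Trim28 passed it as higher with a double margin, with TMM factors and per cell. In late spermatocytes 0 were higher (background 3.04%) and 2 lower, Setdb1 and Suv39h1 (background 7.53%). In round spermatids 0 were higher (background 3.54%) and the same 2 genes were lower (background 11.2%). In elongating spermatids 0 were higher (background 2.04%) and Setdb1 alone was lower (background 11.3%), just past the 1.5-fold limit, and under 5 of the other settings no gene passed. In Leydig cells 1 of 5 was higher, Trim28 (background 14.2%), and 1 lower, Ehmt1 (background 15.8%). In Sertoli cells 0 of 5 were higher (background 7.42%) and 0 lower (background 11.2%). The median log2 ratio of the 6 genes in late spermatocytes was -0.31, and that of all tested genes was -0.04. In early spermatocytes these medians were -0.32 and -0.08, in round spermatids -0.16 and -0.004, and in elongating spermatids -0.21 and -0.12. The members lay above all genes in spermatogonia, at -0.02 and -0.09. So did the 5 tested in Leydig cells, at 0.22 and -0.01, and in Sertoli cells, at 0.19 and -0.04.

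The early spermatocyte gate held unlike cells in the libraries. Cluster 13, high in Stra8, made up 67.3% of the gate in control and 42.4% in cKO, and cluster 15 made up 28.4% and 45.9%. Within cluster 13 of the gate, Suv39h1 stood at 118 and 102 CPM, for a log2 ratio of -0.21 (-0.77 to 0.31), where the whole gate gave -0.93 (-1.46 to -0.43). Setdb1 stood there at 233 and 204 CPM, a ratio of -0.19 (-0.58 to 0.18), and in cluster 15 at 89.5 and 62.7 CPM, a ratio of -0.51 (-1.10 to 0.04). Suv39h2 stood at 84.3 and 64.1 CPM in cluster 13. None of these 3 genes was past 1.5-fold within either cluster except Suv39h1 in cluster 15, which rested on 7 and 2 UMIs, too few to count. For these 3 genes the ratios were closer to 0 within either cluster than in the whole gate. Over all cells of cluster 13, gated or not, the Setdb1 ratio was -0.68 (-1.04 to -0.34). Kdm6a, too, differed between the clusters of the gate. It stood at 59.6 and 17.5 CPM in cluster 13 (104 and 6 UMIs) and at 9.68 and 0 CPM in cluster 15 (12 and 0 UMIs).

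Suv39h1 in round spermatids had 72 UMIs in the control and 33 in the cKO library, for a log2 ratio of -1.11 (-1.75 to -0.49). These levels, and those in late spermatocytes, were near or below that of free RNA, which was 2.06 CPM in control and 4.47 CPM in cKO. In spermatogonia, where it was far above free RNA, the ratio was -0.06 (-0.53 to 0.41), with 94 and 67 UMIs. Ehmt1 in spermatogonia had 224 UMIs in the control and 118 in the cKO library, a ratio of -0.49 (-0.83 to -0.16), short of 1.5-fold. Prm1, a protamine gene of elongating spermatids, stood at 5797 CPM in control and 9176 CPM in cKO spermatogonia, and at 10612 and 10256 CPM in free RNA. Scaled by Prm1, free RNA would hold 6.20 of the 115 CPM of Ehmt1 in control and 12.0 of the 81.8 CPM in cKO. The same scaling would give free RNA 54.6% of all UMIs of the class in control and 89.5% in cKO. It can overstate free RNA: in late spermatocytes it gives 2.94 and 3.01 CPM of Ehmt1, where 0.907 and 0.631 CPM were counted. The part of free RNA in the Ehmt1 ratio was not tested.

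Trim28 went the other way from Setdb1 in spermatocytes and round spermatids. In spermatogonia its ratio was 0.10 (-0.14 to 0.34). It was higher in cKO early spermatocytes, with 573 and 279 UMIs at 178 and 263 CPM, for a log2 ratio of 0.57 (0.36 to 0.78). Within that gate the ratio was 0.38 (-0.06 to 0.81) in cluster 13 and 0.48 (0.21 to 0.75) in cluster 15. It was also higher in late spermatocytes, 0.16 (0.12 to 0.20), and round spermatids, 0.26 (0.18 to 0.34), while in elongating spermatids the ratio was -0.10 (-0.23 to 0.03). Its largest ratio was in Leydig cells, which Ddx4-Cre spares, at 0.67 (0.16 to 1.18) with 58 and 79 UMIs, and in Sertoli cells it was -0.13 (-0.45 to 0.18). Free RNA held Trim28 at 82.0 CPM in control and 81.5 CPM in cKO. Leydig cells held 62.4 CPM (47.4 to 80.6) in control, below that, and 98.9 CPM (78.3 to 123) in cKO. Round spermatids were near it, at 86.5 CPM in control and 103 CPM in cKO. Per 1000 late spermatocytes there were 5612 Trim28 UMIs in control and 5465 in cKO, so that the late difference was seen in CPM and not per cell. The ratios in late spermatocytes were -0.09 (-0.17 to -0.01) for Ehmt2 and -0.02 (-0.21 to 0.16) for Suv39h2.

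Other genes of the pathway were read from 6 lists of 31 genes in all, whose members are shown beside the 6 genes in the heat map. Of 30 tested, 7 were called higher and 17 lower from late spermatocytes to round spermatids, where 29.4% and 33.4% of all genes were. Among cofactors of SETDB1, 4 of 7 were lower at this step, Atf7ip, Morc3, Mphosph8 and Tasor, and 2 higher, Zfp57 and Pphln1. Mphosph8 and Tasor encode subunits of the HUSH complex, which works with SETDB1, and Mphosph8 went from 622 to 25.5 CPM in control and from 632 to 26.3 CPM in cKO. ATF7IP stabilises SETDB1 in the nucleus, and Atf7ip went from 63.4 to 12.6 CPM in control. Pphln1, the remaining HUSH subunit, went from 20.1 to 169 CPM in control and from 22.7 to 208 CPM in cKO. Like Suv39h2, it was called higher in both libraries.

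**Figure D5:**
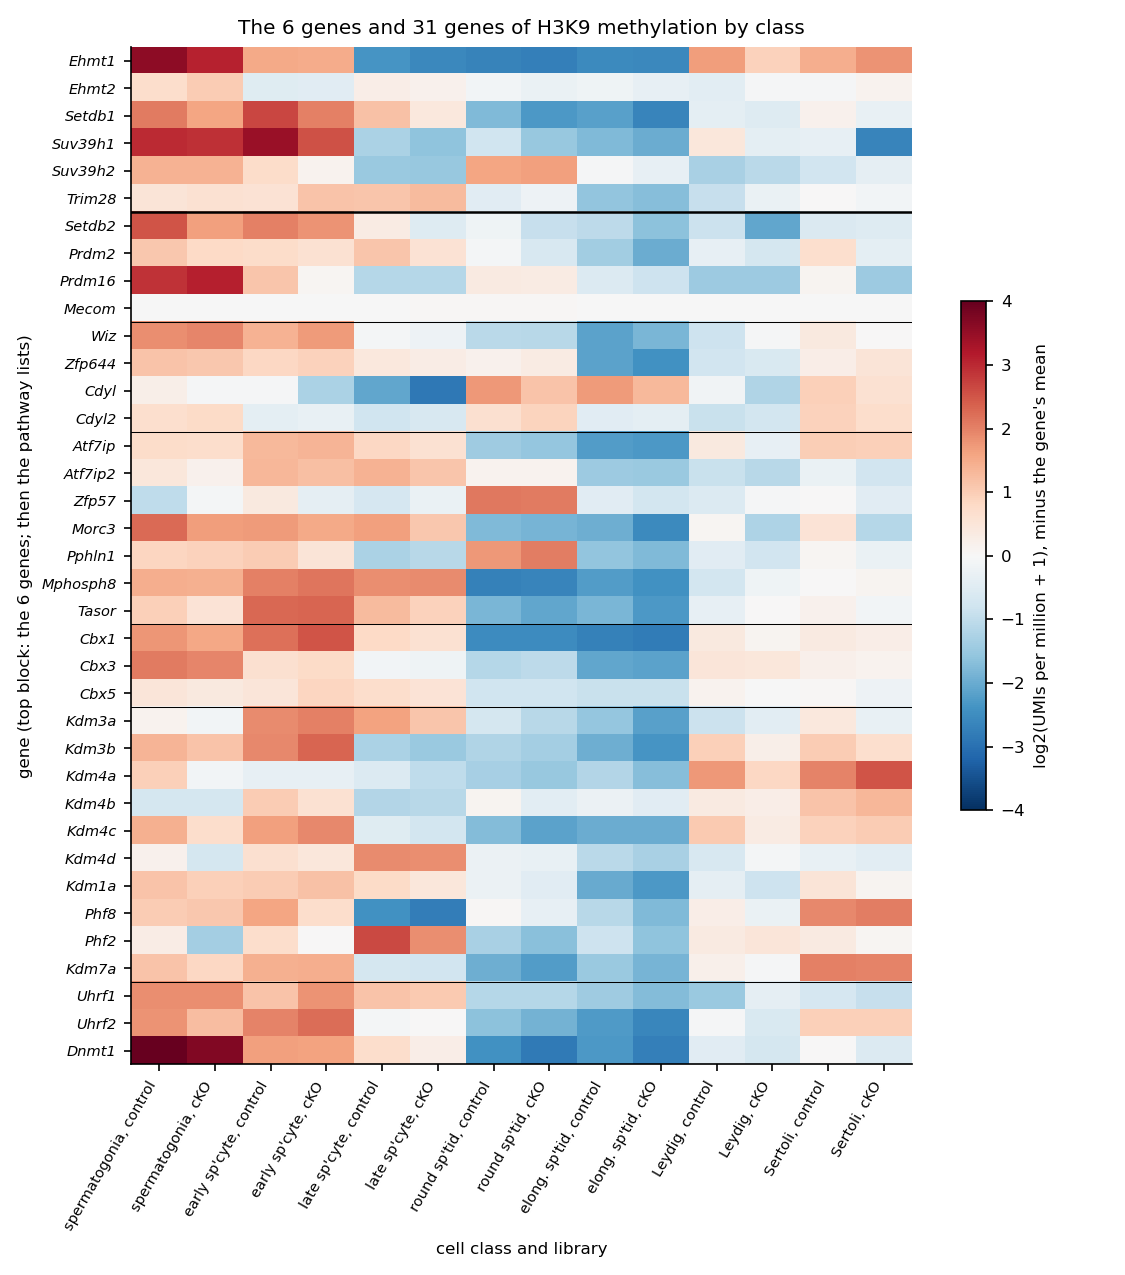
Heat map of log2(CPM + 1) minus each gene's own mean, for the 6 genes (top block) and 31 genes of the pathway lists (lower blocks), by class and library. Most genes are highest in spermatogonia and spermatocytes, whereas Suv39h2, Cdyl, Zfp57 and Pphln1 are high in round spermatids.

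Of the 4 cofactors of G9a and GLP, Cdyl and Cdyl2 were higher in round spermatids and Wiz lower. Cdyl, a reader of the mark and crotonyl hydratase, had the most UMIs of its list and went from 22.7 to 330 CPM in control. Of the 3 HP1 genes, which encode readers of H3K9 methylation, Cbx1 and Cbx5 were lower at this step, Cbx1 from 125 to 11.7 CPM in control. Of the 10 demethylase genes 6 were lower and 2 higher, with Kdm4d, which acts on H3K9me3, going from 85.9 to 19.0 CPM in control. From early to late spermatocytes Kdm4d and Phf2 were the only list genes called higher, and 12 of the 29 tested were lower. Of all genes, 17.5% were higher and 28.8% lower at that step. Of the 4 other methyltransferase genes, Mecom had 1 and 2 UMIs and was not tested, and Prdm2 had most UMIs.

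Between the libraries the lists counted 0 higher and 7 lower of 28 tested in spermatogonia, 1 and 4 of 27 in early spermatocytes, and 0 and 5 of 30 in late spermatocytes. Of all genes, 11.8%, 18.2% and 7.53% were lower in these classes and 4.39%, 6.32% and 3.04% higher. The lists counted 0 and 4 of 30 in round spermatids, where 3.54% and 11.2% of all genes were past the limit, and 0 and 10 of 30 in elongating spermatids, where 2.04% and 11.3% of all genes were past the limit. In Leydig cells they counted 2 and 7 of 22, against 14.2% and 15.8% of all genes. In Sertoli cells they counted 0 and 4 of 27, against 7.42% and 11.2%. In late spermatocytes the 5 were Setdb2, Cdyl, Kdm4a, Phf8 and Phf2. Setdb2, a relative of Setdb1, stood at 10.9 and 5.71 CPM, for a log2 ratio of -0.94, and Phf2, a demethylase of H3K9, at 94.1 and 53.6 CPM, a ratio of -0.81. None of the 7 cofactors of SETDB1 and none of the 3 HP1 genes passed 1.5-fold there. Mphosph8 had a ratio of 0.02 and Atf7ip of -0.24, while Morc3, which encodes a chromatin ATPase, was at -0.58, just short of the limit. Morc3 was past 1.5-fold lower in spermatogonia (-0.59), elongating spermatids (-0.71), Leydig cells (-1.37) and Sertoli cells (-1.77).

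The genes whose pattern over the 14 points (7 classes in 2 libraries) was most like each member were ranked by Pearson's r of log2(CPM + 1) among 12428 genes. They were Atic, Auts2 and Dkc1 for Ehmt1 (r 0.992 to 0.988), and Haus6, Supt16 and Fra10ac1 for Setdb1 (0.993 to 0.990). For Suv39h1 they were Atad5, Lrrc40 and Bclaf3 (0.963 to 0.957), and for Trim28 Cops3, Erh and Ranbp1 (0.992 to 0.985). For Suv39h2 they were Diaph3, Cdc25c and 4930563E22Rik (0.956 to 0.932), and for Ehmt2 Snf8, Elp6 and Cdca7l (0.910 to 0.904). Points of 1 library share depth and free RNA. Among the members themselves r ran from -0.02 for Suv39h2 and Trim28 to 0.81 for Setdb1 and Trim28. The partner genes Ehmt1 and Ehmt2 had an r of 0.36, and the paralogs Suv39h1 and Suv39h2 one of 0.43.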

How the data were processed

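Single-cell libraries were made with 10x 3' v3.1 chemistry, per the labels. UMI counts per gene and barcode are unnormalized and were deposited by the authors; the submitters' processing notes name Cell Ranger, Seurat 4.1.0, kallisto 0.45.0, Bowtie2, cutadapt, SAMtools, MACS2, SEACR and deepTools, with build mm10. ATAC peaks carry a fold enrichment and a −log10 q-value, and CUT&Tag regions a summed signal, all as deposited by the authors.

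Barcodes with at least 3000 UMIs were gated by marker scores, with a margin of 0.25 over the next class and at least 3 markers. Ratios carry exact conditional binomial intervals. The stage threshold was 2-fold in both libraries and the genotype threshold 1.5-fold, among genes with at least 20 UMIs. Intervals cover 95%, and the level of 3 counts was given beside a count of 0. Doublets (5.25% and 6.01%) were called with Scrublet in scanpy 1.11.5 and kept. Leiden clusters were made with leidenalg 0.10.2, and TMM factors with edgeR 4.0.16. Scripts ran in Python 3.11.15 with numpy 2.4.6, scipy 1.17.1 and pandas 2.3.3, and were tested on simulated data.

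The 6 genes and all lists were chosen with earlier results of these data known. Named besides the 6 genes were the 3 genes most alike in pattern to each, among those with at least 200 UMIs per library, and, from fixed pathway lists, the genes called and the one with most UMIs. Bulk RNA values were not used here, because no table used here pairs their transcript identifiers with genes. Promoter sequences are from RefSeq on GRCm38, and all 6 genes matched.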

Additional observations from a re-analysis of the deposited data

Results flagged for a closer look

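Ehmt2 was higher in cKO than in control spermatogonia, with a log2 ratio of 0.332, and lower in late spermatocytes (-0.0929), round spermatids (-0.136) and elongating spermatids (-0.146). Each of these intervals lay on 1 side of 0, while early spermatocytes were at 0.05 (-0.46 to 0.54). Per cell the ratios in spermatogonia, late spermatocytes and elongating spermatids were 0.16, -0.29 and -0.29, and with TMM factors they were 0.40, -0.06 and -0.04. Of these, 0.16, -0.06 and -0.04 are within the main ratios' counting error of 0. With 1 library per genotype the difference was not tested. In spermatogonia the protamine gene Prm1 stood at 5797 CPM in control and 9176 CPM in cKO. Scaled by Prm1, free RNA would hold 31.8 of the 99.1 CPM of Ehmt2 in control and 51.1 of the 125 CPM in cKO. That scaling would give free RNA 54.6% of all UMIs of the class in control and 89.5% in cKO. It can overstate free RNA: in late spermatocytes it gives 2.94 and 3.01 CPM of Ehmt1, where 0.907 and 0.631 CPM were counted. The part of free RNA in the Ehmt2 ratio was not tested further.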

How the results depend on the processing

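Setdb1 was lower in cKO in all 5 germ-cell classes and in Sertoli cells under each setting tried, with late-spermatocyte ratios of -0.95 to -0.72. The number of the 6 genes past 1.5-fold depended more on the settings. The share of all genes past it, in either direction, was within 1.5-fold of its main value in 65 of 72 pairs of class and setting. In the other 7 pairs it moved further. In spermatogonia it went from 0 to 1 at 5000 UMIs per barcode (Setdb1) or without doublets (Ehmt1) and to 2 per cell. In early spermatocytes it went from 3 to 0 at 2000 UMIs and to 1 in cells of cluster 13 (Ehmt1, lower) or cluster 15 (Ehmt1, higher). The Suv39h2 call there was kept only without doublets, in Leiden clusters and with no UMI minimum. In late spermatocytes it went from 2 to 1 without a margin or without doublets, and in round spermatids from 2 to 1 without a margin. In elongating spermatids it went from 1 to 0 at 2000 UMIs, 5000 UMIs, no margin, at most 10% mitochondrial UMIs or with TMM factors, and to 2 without doublets or per cell. In Leydig cells it went from 2 to 1 at 2000 UMIs, without doublets or per cell, and to 0 in Leiden clusters. In Sertoli cells it went from 0 to 2 at 10% mitochondrial UMIs and to 1 in Leiden clusters. From round to elongating spermatids 5 in place of 3 genes were 2-fold apart per cell (Ehmt2 and Setdb1 added, both lower), where 75.1% of all genes were lower, and the control step of Setdb1 from early to late spermatocytes reversed to 0.387. The cause of these shifts was not tested. The per-cell scale and the 2 cluster settings were chosen after seeing the data. No paired analysis was possible because each genotype has 1 single-cell library, and the alternatives for bulk RNA were not run. Depth limits every class in which a gene had few UMIs, which for Ehmt1 and Suv39h1 includes spermatids and cKO late spermatocytes.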
